A study of Mus musculus with 15 samples.

Results

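The genes described here encode the nuclear receptor PPARα and the enzymes and carriers that break down fatty acids in mitochondria and peroxisomes. They were chosen by gene symbol, with earlier results of these data known, and number 33 of the 26844 genes in the deposited table of normalised counts. They comprise 1 receptor, 5 acyl-CoA thioesterases, 4 proteins of the carnitine shuttle, 4 acyl-CoA dehydrogenases, 4 genes for the later steps of the mitochondrial spiral, 2 auxiliary mitochondrial enzymes, 3 genes of the electron transfer flavoprotein system, 8 peroxisomal genes, and the PPARα targets Pdk4 and Cyp4a10. Of these, 31 reached the level needed for testing (a normalised count of at least 10 in at least 3 libraries), and the remaining 2, Acot3 and Acot5, were close to 0 in every library.

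The RNA came from distal jejunum, the absorptive stretch of the small intestine before the ileum, in C57BL/6 males that were 13 to 15 weeks old. Wild-type animals (WT) were set beside global knockouts of Aster-B/C (KO), proteins encoded by Gramd1b and Gramd1c that carry plasma membrane cholesterol inward to the endoplasmic reticulum. Each genotype ate a control diet or the same diet with 0.01% ezetimibe, which blocks the intestinal cholesterol transporter NPC1L1, and every mouse of every group received 0.08% cholesterol in the diet. There were 4 libraries of WT control, 4 of WT ezetimibe, 3 of KO control and 4 of KO ezetimibe. The deletion was global, so effects arising in the jejunum and in other organs cannot be told apart, and neither the exons removed nor whether KO and WT mice were littermates is stated in the labels.

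Between 13855034 and 19307079 reads, recovered from the normalised counts, stood behind each library. Gramd1c ranged over 1059 to 1845 normalised counts in WT control and 115 to 194 in KO control, and Gramd1b over 2274 to 4046 and 962 to 1247. WT control replicate 4 and KO ezetimibe replicate 3 lay at opposite ends of the first principal component (27.7% of the variance over all genes), and results without them are given at the end. The 14 enterocyte markers checked summed to between 925052 and 1456282 normalised counts in every library, whereas 8 smooth muscle markers summed to between 30.2 and 231 and 6 markers of neurons and glia to between 3.25 and 16.9. Smooth muscle Myocd, Actg2, Cnn1 and Synm, and neural Elavl4, Uchl1, Sox10, Gfap and S100b, were at 0 in at least 1 library. These are bulk measurements of tissue, in which fewer cells of a type and less RNA per cell cannot be told apart.

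PPARα binds fatty acids and their derivatives and, paired with the retinoid X receptor, switches on genes of fatty acid oxidation. A fatty acid is first joined to coenzyme A. Carnitine palmitoyltransferases carry the long chains into the mitochondrion, where acyl-CoA dehydrogenases, hydratases, hydroxyacyl-CoA dehydrogenases and thiolases shorten the chain one turn at a time and pass electrons to the respiratory chain. Peroxisomes shorten very long and branched chains by a parallel set of enzymes, and thioesterases release the free acid from coenzyme A. Enterocytes meet dietary fat directly, and PPARα is known to raise oxidation genes in the small intestine after fat-rich meals and in fasting.

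Expression per exon length differed by several orders of magnitude between these genes. Levels of different genes were compared on a per-length scale, the normalised count turned into CPM (scaled to the same total in every library) and divided by the kilobases of exon. On that scale Hadh, the short-chain hydroxyacyl-CoA dehydrogenase, averaged 144 ± 21.0 over all libraries (SD, n = 15). Acaa2, the mitochondrial thiolase, averaged 134 ± 36.3 (SD, n = 15), and Etfa and Hsd17b4 had means of 117 and 117. Each gap between neighbours in this order was smaller than the SD of the gene above it. At the lower end stood Cyp4a10 at 5.37 ± 3.40 (SD, n = 15), Ppara at 3.85 ± 1.39 (SD, n = 15) and Acot1 at 2.40 ± 1.58 (SD, n = 15). The receptor itself was therefore among the least abundant members per length, with only Acot1, Acot3 and Acot5 having lower means. Acot3 ranged over 1.02 to 8.93 normalised counts per library and Acot5 over 0 to 3.06, and neither is described further.

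**Figure D1:**
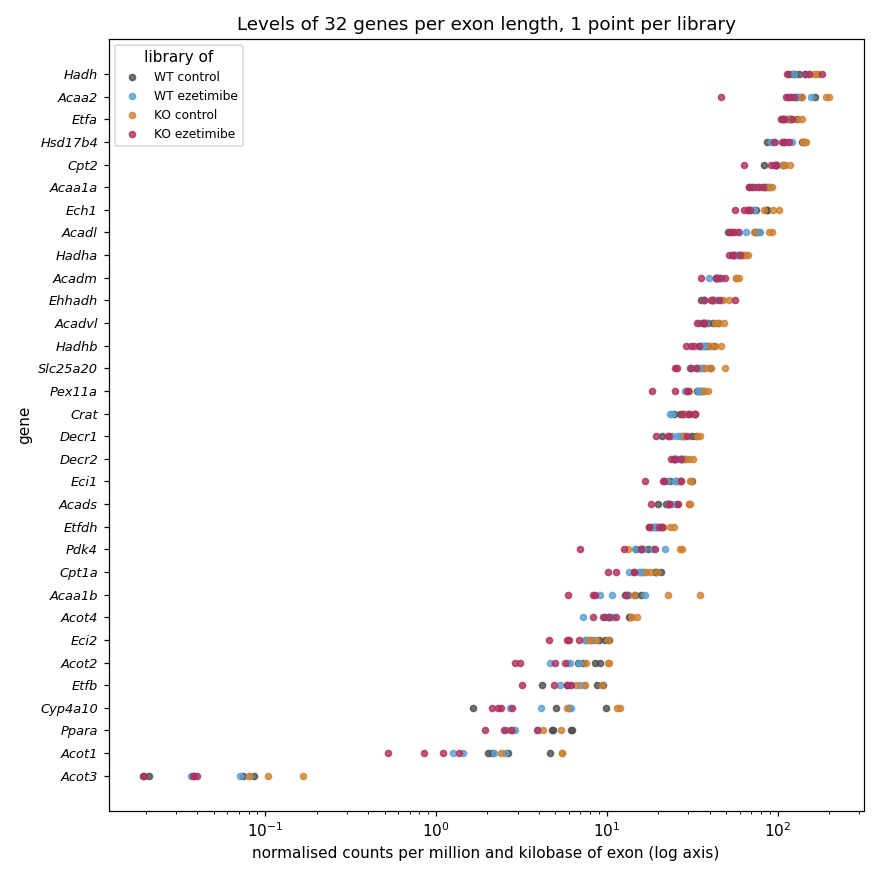
Level of each gene in each library as normalised CPM per kilobase of exon on a log axis, with genes ordered by their mean and 1 point per library coloured by group. Hadh and Acaa2 lie at the top, and Ppara, Acot1 and Acot3 at the bottom. Acot5, at 0 in some libraries, is left out.

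Across the 31 tested genes the mean log2 level was highest in KO control, at 10.85, 10.79 and 10.64 in its 3 libraries. The WT control libraries stood at 10.57, 10.50, 10.30 and 10.48, the WT ezetimibe libraries at 10.37, 10.26, 10.41 and 10.29, and the KO ezetimibe libraries at 10.26, 10.29, 10.09 and 10.35. The 3 KO control libraries were thus above each of the other 12, and KO ezetimibe replicate 3 was the lowest library of all. KO control replicates 1, 2 and 3 held the highest value of 13, 11 and 3 of the 33 genes, and KO ezetimibe replicate 3 held the lowest value of 9. These counts include the untested Acot3 and Acot5, and libraries tied for the lowest value of Acot5 were counted as a single library. No means or counts over all genes stand beside these values, so they cannot be read as particular to the members.

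Each comparison was tested with limma on log2(normalised count + 1), and a gene was called when its p-value, adjusted over all 14299 genes tested, was under 0.05. Log2 fold changes below are given ± their standard error. In KO against WT on the control diet, fatty acid oxidation genes lay mostly above WT. A positive log2 fold change was found for 28 of 31, where 49.1% of all genes tested were positive, and their median was 0.28 against −0.0054 over all genes. Only Acads, which oxidises the shortest acyl chains, was called higher, and no member was called lower. Over all genes 0.147% were called higher. An unadjusted p under 0.05 was reached by 17 members, all of them higher, against 6.87% of all genes in that direction. In 11 members each KO library was above each WT library, a pattern shown by 6.59% of all genes tested. The exceptions with negative values were Ppara at −0.41, Eci2 at −0.027 and Cpt1a at −0.0021. The call for Acads ended in 6 of the 7 fits that left out 1 library of these groups and held only without WT control replicate 1, so it depends on 6 single libraries. It also ended with edgeR on the recovered reads and with quantile normalisation.

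On ezetimibe the same contrast of genotypes gave no call among the 31 genes (limma, with 0.00699% of all genes called in either direction). An unadjusted p under 0.05 was reached by 4 members, Crat higher and Acot1, Acot2 and Eci2 lower, against 16.4% of all genes. The median was −0.014 against −0.0018 over all genes, and edgeR and DESeq2 on the recovered reads called 0 members as well. In Eci2 alone every KO library lay below every WT library, which 4.84% of all genes did.

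Ezetimibe in WT mice also gave no call among the 31 (limma, with 0.217% of all genes called in either direction). Negative fold changes were found for 23 of them, where 52.3% of all genes were negative, with a median of −0.077 against −0.0096 over all genes. The 5 members with an unadjusted p under 0.05 were all lower, against 1.94% of all genes tested. They were Ppara, Acot2, Cpt1a, Acadvl and Eci2. Every WT ezetimibe library was below every WT control library for Ppara, Acot2 and Eci2, as for 1.21% of all genes. DESeq2 on the recovered reads called 1 member, Ppara, where it called 0.65% of all genes, and edgeR called 0.

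In KO mice ezetimibe lowered 6 members, Acot1, Acot2, Ech1, Eci2, Hadhb and Acaa1b, and raised none. Over all genes 0.294% were called lower in this comparison. Of the 31 genes 29 had a negative fold change, where 49.3% of all genes did, and their median was −0.38 against 0.0056 over all genes. The remaining Crat and Ehhadh stood at 0.033 and 0.013. An unadjusted p under 0.05 was reached by 22 members, all lower, against 11.2% of all genes, and in 20 members the KO ezetimibe libraries lay entirely below the KO control libraries, against 9.38%. All 6 calls ended when KO control replicate 1, KO control replicate 2 or KO ezetimibe replicate 3 was left out, and 2, Acot1 and Acot2, were left without KO ezetimibe replicate 2. The count rose to 9 without KO control replicate 3, to 7 without KO ezetimibe replicate 1 and to 10 without KO ezetimibe replicate 4, so the number of calls depends on single libraries. With only the KO libraries in the fit 1 member was called, Cyp4a10. DESeq2 on the recovered reads called 16 members lower, where it called 8.08% of all genes in either direction. This comparison and that of KO with WT on the control diet share the KO control libraries, which are high for most of these genes, and the fold changes of both stand side by side below without being taken as separate evidence.

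The difference between the ezetimibe effects of the genotypes was itself tested as an interaction, and 0 members passed (limma, with 0% of all genes called). Estimates were negative for 29 of 31, the exceptions being Ppara and Crat, where 49.1% of all genes were negative. An unadjusted p under 0.05 was reached by 11 members, all with a more negative effect in KO, against 3.15% of all genes in that direction. edgeR, DESeq2 and limma-voom called 0 members too. A different response of the genotypes to ezetimibe was therefore not shown for any of these genes.

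Averaging over the other factor uses all 15 libraries. KO against WT averaged over both diets called 4 members higher, Acadm, Acads, Hadh and Etfdh, and 0 lower, with 1.64% of all genes called higher. DESeq2 on the recovered reads called 6 members, with 8.64% of all genes, and with quantile normalisation limma called 0. None of the 4 was called without replicate 1 or 3 of KO control, replicate 4 of KO ezetimibe, or replicate 2 or 4 of WT ezetimibe. Acads alone was called without WT control replicate 2 or 4. Acadm and Acads were called without replicate 3 of WT control or replicate 1 of either ezetimibe group. Ezetimibe against the control diet averaged over both genotypes called 8 members lower, namely the 6 called in KO together with Ppara and Cpt1a, and 0 higher, with 0.734% of all genes called lower. DESeq2 on the recovered reads called 13 members, with 6.73% of all genes. Acot1, Acot2, Eci2 and Ech1 were called in each of the 15 fits that left out 1 library. The count was 4, these same genes, without replicate 2 or 4 of WT control, 4 of WT ezetimibe, 1 of KO control or 3 of KO ezetimibe. It was 5, with Cpt1a added, without WT ezetimibe replicate 1 or 2 or KO ezetimibe replicate 2.

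**Figure D2:**
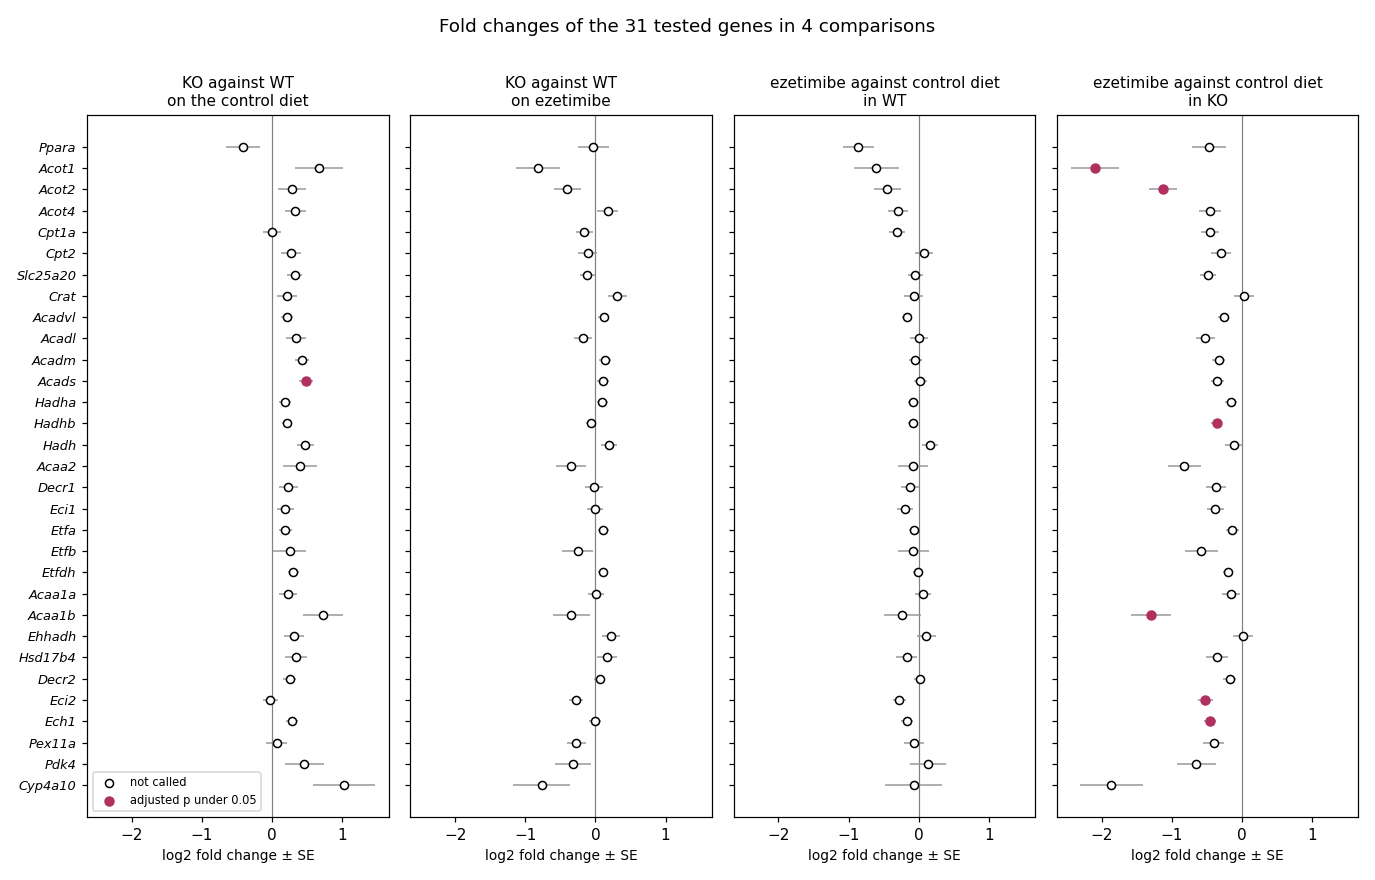
Log2 fold change with its standard error (horizontal lines) for the 31 tested genes in 4 comparisons, filled where the limma adjusted p was under 0.05. Points lie mainly to the right of 0 in KO relative to WT on the control diet and to the left for ezetimibe in KO, where 6 are filled.

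Ppara (ENSMUSG00000022383, chromosome 15, 85734983 to 85802819, plus strand; coordinates here and below are those of GENCODE M21 on mm10) encodes the receptor. It had normalised counts of 388, 339.7, 283 and 262 in WT control and of 150.0, 159, 235 and 159 in WT ezetimibe. The KO control libraries stood at 255, 159 and 323 and the KO ezetimibe libraries at 239.9, 165, 132 and 157. All WT ezetimibe libraries were below all WT control libraries, while the KO groups overlapped, and KO control replicate 2 was as low as the ezetimibe libraries. With ezetimibe its log2 fold change was −0.86 ± 0.225 (adjusted p = 0.256, limma) in WT and −0.48 ± 0.243 (adjusted p = 0.25, limma) in KO, and neither passed. Averaged over both genotypes Ppara fell, at −0.67 ± 0.165 (adjusted p = 0.0469, limma), a call that held in 3 of the 15 fits with 1 library left out. In KO against WT on the control diet the receptor, unlike most of its known targets here, had a negative estimate, −0.41 ± 0.243 (adjusted p = 0.456, limma).

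The thioesterases Acot1 to Acot5 hydrolyse acyl-CoA and lie head to tail on the plus strand of chromosome 12, from the start of Acot2 at 83987861 to the end of Acot5 at 84076020. Acot1 acts in the cytosol, Acot2 in the mitochondrial matrix, and Acot4 in peroxisomes. Acot1 and Acot2 are well known as PPARα targets. The sequences before their start sites are shown because limma called both genes lower with ezetimibe and did not call Acot4, in the same array. For ezetimibe averaged over both genotypes, DESeq2 on the recovered reads and limma after quantile normalisation called Acot4 lower too. Each line gives the 250 bases before the RefSeq start (GRCm38.p6, plus strand), with capitals marking a match to the direct repeat described after them, present only in Acot4 among the 3.

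Acot1 chr12:84009252-84009501: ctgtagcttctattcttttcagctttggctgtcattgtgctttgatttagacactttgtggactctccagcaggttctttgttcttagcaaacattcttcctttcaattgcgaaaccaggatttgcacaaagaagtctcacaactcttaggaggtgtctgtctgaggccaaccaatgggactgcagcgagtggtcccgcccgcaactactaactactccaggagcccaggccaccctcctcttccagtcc
Acot2 chr12:83987611-83987860: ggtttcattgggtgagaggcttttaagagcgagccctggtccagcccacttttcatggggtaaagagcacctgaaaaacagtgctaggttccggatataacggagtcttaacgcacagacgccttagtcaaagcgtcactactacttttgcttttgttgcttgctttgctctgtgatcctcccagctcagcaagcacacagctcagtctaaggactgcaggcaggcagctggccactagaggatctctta
Acot4 chr12:84038129-84038378: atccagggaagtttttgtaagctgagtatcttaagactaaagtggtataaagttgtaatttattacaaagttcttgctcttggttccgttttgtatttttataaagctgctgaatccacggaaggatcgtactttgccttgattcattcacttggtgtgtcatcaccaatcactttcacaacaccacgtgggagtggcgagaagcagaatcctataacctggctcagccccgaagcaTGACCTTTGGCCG

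PPARα and the retinoid X receptor are known to bind a direct repeat of AGGTCA with 1 base between the copies. This repeat (AGGTCA, any base, AGGTCA) was searched on both strands, with up to 2 mismatches over its 13 bases, in windows from 250 bases before to 50 after each RefSeq start. The windows cover 28 of the 33 genes. Such a match was present in 3 of 30 member windows (10%) and in 3.86% of all 32851 windows. The 3 were Acot4 at −13 to −1 (TGACCTTTGGCCG, reverse strand), Etfa at −77 to −65 (TTACCTTTGCCCT, reverse strand) and Slc25a20 at +7 to +19 (AGGTGAAAGGTCG). No member window had a match with 0 or 1 mismatch, which 0.554% of all windows did. A single exact copy of AGGTCA, which can lie inside the repeat as it does in Acot4, was found on either strand in 8 of 30 member windows (26.7%) against 16.3% of all windows. These windows belong to only 6 of the 28 genes, Acadm, Acadvl, Acot3, Acot4, Acot5 and Cpt1a. Acot3 and Acot5, which were not tested, have overlapping windows in which the same sites were counted again. Neither Acot1 nor Acot2 had either pattern in its window. Sequence outside these windows was not searched and binding was not measured, so absence of a match does not show absence of binding. Aligned over 250 bases, the Acot1 and Acot2 sequences were identical at 45.2% of alignment columns, within the range of the 10 pairs of the array (42.4% to 47.7%).

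Acot1 (ENSMUSG00000072949, chromosome 12, 84009490 to 84018371, plus strand) had 127, 147, 129.8 and 257 normalised counts in WT control and 85.5, 141, 76.4 and 124 in WT ezetimibe. It had 335, 325 and 147 in KO control and 53.5, 83.6, 36.2 and 70.3 in KO ezetimibe. KO control replicates 1 and 2 were the highest of all libraries and replicate 3 lay within the WT control range, while the KO ezetimibe libraries were all below KO control and WT control. With ezetimibe Acot1 fell in KO, at −2.10 ± 0.344 (adjusted p = 0.0192, limma) on the log2 scale, a level 0.234 times that of KO control. In WT the fold change was −0.61 ± 0.318 (adjusted p = 0.999, limma), and averaged over both genotypes it was −1.35 ± 0.234 (adjusted p = 0.00788, limma). The interaction estimate of −1.49 ± 0.469 (adjusted p = 0.681, limma) did not pass. The genotypes differed by 0.67 ± 0.344 (adjusted p = 0.384, limma) on the control diet and by −0.82 ± 0.318 (adjusted p = 0.256, limma) on ezetimibe, neither of which passed.

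Acot2 (ENSMUSG00000021226, chromosome 12, 83987861 to 83993873, plus strand) had 257, 268, 231 and 281 in WT control, 154, 214, 207 and 189 in WT ezetimibe, 355, 336 and 259.9 in KO control and 102, 195, 120.3 and 178 in KO ezetimibe. Within each genotype the ezetimibe libraries were all below the control libraries. The log2 fold change with ezetimibe was −1.12 ± 0.201 (adjusted p = 0.0271, limma) in KO, −0.45 ± 0.186 (adjusted p = 0.874, limma) in WT and −0.78 ± 0.137 (adjusted p = 0.00801, limma) averaged over both. Acot4 had a fold change of −0.46 ± 0.157 (adjusted p = 0.108, limma) in KO and −0.30 ± 0.145 (adjusted p = 0.974, limma) in WT, the same sign as its neighbours and a smaller size, and did not pass with limma. Acot1 and Acot2 share part of their transcript sequence, with 32.7% of the 50-base words of Acot1 and 27.7% of those of Acot2 also present in another gene, mainly in each other, so reads could have been divided between them and their separate values are uncertain.

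The carnitine shuttle moves long-chain acyl groups across the mitochondrial membranes. Cpt1a (ENSMUSG00000024900, chromosome 19, 3322334 to 3385733, plus strand), the outer-membrane transferase and the main control point of the pathway, had 2392, 2254, 1896 and 2064 normalised counts in WT control and 1922, 1715, 1593 and 1719 in WT ezetimibe. It had 2362, 1947 and 2132 in KO control and 1234, 1724, 1526 and 1803 in KO ezetimibe. KO control lay inside the range of WT control, and all KO ezetimibe libraries were below all KO control libraries. Averaged over both genotypes Cpt1a fell with ezetimibe, at −0.38 ± 0.0858 (adjusted p = 0.0313, limma), a call kept in 9 of the 15 fits with 1 library left out. Neither the value in KO, −0.46 ± 0.126 (adjusted p = 0.0645, limma), nor that in WT, −0.31 ± 0.117 (adjusted p = 0.768, limma), passed alone. The estimate in KO relative to WT on the control diet was −0.0021 with an SE of 0.126.

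Slc25a20, the translocase that exchanges acylcarnitine for carnitine, had 3098, 3581 and 2863 in KO control and 1938, 2516, 2195 and 2479 in KO ezetimibe, with WT control at 2812, 2767, 2319 and 2295. Its fold changes were 0.32 ± 0.113 (adjusted p = 0.192, limma) in KO relative to WT on the control diet and −0.48 ± 0.113 (adjusted p = 0.0553, limma) for ezetimibe in KO, neither of which passed. Cpt2, which releases acyl-CoA inside the mitochondrion, had −0.30 ± 0.142 (adjusted p = 0.221, limma) in KO with ezetimibe, and its lowest value of all was 2414 in KO ezetimibe replicate 1 beside 3592 to 4109.8 in the other libraries of that group. Crat, the carnitine acetyltransferase, had fold changes of 0.21 in KO relative to WT on the control diet, 0.31 on ezetimibe and 0.033 for ezetimibe in KO, none of which passed.

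The 4 acyl-CoA dehydrogenases take the first step of each turn and differ in the chain length they prefer, from very long (Acadvl) and long (Acadl) through medium (Acadm) to short (Acads). All 4 had positive fold changes in KO on the control diet and all 4 had negative ones with ezetimibe in KO. Acads (ENSMUSG00000029545, chromosome 5, 115110299 to 115119346, minus strand) had 814, 831, 704 and 718 normalised counts in WT control, 793, 770.0, 796 and 752 in WT ezetimibe, 1074, 1058 and 1073 in KO control and 949.9, 820.2, 729 and 859.6 in KO ezetimibe. The 3 KO control libraries stood above all other 12 libraries, and KO ezetimibe overlapped WT ezetimibe. KO against WT had a log2 fold change of 0.48 ± 0.0943 (adjusted p = 0.047, limma) on the control diet, a level 1.4 times that of WT. On ezetimibe it was 0.10 ± 0.0873 (adjusted p = 0.531, limma). Averaged over both diets it was 0.29 ± 0.0643 (adjusted p = 0.0265, limma), a call kept in 10 of the 15 fits with 1 library left out.

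Acadm (ENSMUSG00000062908, chromosome 3, 153922357 to 153944632, minus strand), whose loss causes the best known disorder of fatty acid oxidation in humans, had 2805, 2591, 2632 and 2395 in WT control and 3488, 3371 and 3623 in KO control, without overlap. It had 2722, 2478, 2647 and 2249 in WT ezetimibe and 3078, 2677, 2460.1 and 2914 in KO ezetimibe, which overlapped. The fold change was 0.42 ± 0.0951 (adjusted p = 0.0636, limma) on the control diet, just short of the threshold, and 0.28 ± 0.0648 (adjusted p = 0.0294, limma) averaged over both diets, kept in 8 of the 15 fits. With ezetimibe in KO, Acadl, Acadm and Acads had fold changes of −0.52, −0.33 and −0.35 with limma adjusted p of 0.0622, 0.0706 and 0.062. In WT the same 3 genes stood at 0.00014, −0.048 and 0.024.

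Hadha and Hadhb encode the α and β subunits of the mitochondrial trifunctional protein, which hydrates, oxidises and cleaves long acyl chains. The genes lie head to head on chromosome 5 and their annotated starts are separated by 85 bases. That stretch is shown because it precedes both subunits, of which Hadhb was called with ezetimibe in KO and Hadha was not. It is given on the plus strand, the strand of Hadhb (RefSeq letters, GRCm38.p6), with 69.4% G or C and no match to either pattern searched.

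Hadha to Hadhb chr5:30155163-30155247: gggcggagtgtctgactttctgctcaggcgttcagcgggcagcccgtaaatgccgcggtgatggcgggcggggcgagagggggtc

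Hadhb (ENSMUSG00000059447, chromosome 5, 30155248 to 30184593, plus strand) had 4060.2, 3683, 3593 and 3919.8 in WT control, 3661, 3474, 3679 and 3594 in WT ezetimibe, 4449, 4667 and 4156 in KO control and 3430.2, 3587, 3372 and 3382 in KO ezetimibe. KO control was above every other library and the 4 KO ezetimibe values were close together. With ezetimibe Hadhb fell in KO, at −0.36 ± 0.0753 (adjusted p = 0.0471, limma), and the value in WT was −0.081 ± 0.0697 (adjusted p = 0.999, limma). Hadha had 9213, 8629 and 8516 in KO control and 7271, 8175, 8406 and 7697 in KO ezetimibe, again without overlap, with a fold change of −0.16 ± 0.0814 (adjusted p = 0.258, limma). The annotated pseudogene Gm13910 shares 56.6% of the 50-base words of Hadhb, so reads of Hadhb could have been divided with it.

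Hadh (ENSMUSG00000027984, chromosome 3, 131233419 to 131272101, minus strand), which oxidises short hydroxyacyl chains and had the highest mean level per length of the 33 genes, had 10147, 9483, 9025 and 8611 in WT control and 13361, 12620.0 and 12697 in KO control. The ezetimibe groups had 10832, 10792, 11065 and 8978 in WT and 14368, 11240.2, 9919.6 and 12478 in KO, where replicate 1 was the highest of all libraries. The fold change of KO against WT averaged over both diets was 0.33 ± 0.0819 (adjusted p = 0.0365, limma), a call kept in 5 of the 15 fits. On the control diet alone it was 0.47 ± 0.12 (adjusted p = 0.0855, limma). Hadh was 1 of 2 members without a negative value for ezetimibe averaged over both genotypes, at 0.021 beside 0.060 for Ehhadh. Acaa2, the thiolase of the last step, had 4559, 4581 and 3289 in KO control and 2822, 2644, 1242 and 3087 in KO ezetimibe, so that replicate 3 of the latter lay far below the others, and its fold change of −0.82 ± 0.236 (adjusted p = 0.0707, limma) did not pass. Decr1 and Eci1, which deal with double bonds in unsaturated chains, had fold changes of −0.37 ± 0.138 (adjusted p = 0.129, limma) and −0.38 ± 0.122 (adjusted p = 0.0907, limma) in the same comparison.

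Electrons from the acyl-CoA dehydrogenases pass to the electron transfer flavoprotein, with subunits encoded by Etfa and Etfb, and on to ubiquinone through Etfdh. Etfdh (ENSMUSG00000027809, chromosome 3, 79603788 to 79629500, minus strand) had 2236, 2092, 2206 and 2222 in WT control, 2142, 2083, 2243 and 2196 in WT ezetimibe, 2923, 2654 and 2521 in KO control and 2411, 2469, 2327 and 2181 in KO ezetimibe. KO control was above all other libraries, and KO ezetimibe overlapped WT ezetimibe. KO against WT gave 0.30 ± 0.0768 (adjusted p = 0.0859, limma) on the control diet and 0.21 ± 0.0524 (adjusted p = 0.0399, limma) averaged over both diets, where the call held in 2 of the 15 fits with 1 library left out. Etfa had 0.19 ± 0.0875 (adjusted p = 0.332, limma) on the control diet. Etfb, at 65.4 to 166 normalised counts per library, had 0.25 ± 0.235 (adjusted p = 0.676, limma), and 57.7% of its 50-base words also occur in the annotated gene Gm45233, so its level is uncertain.

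Among the 8 peroxisomal genes Ech1, Eci2 and Acaa1b fell with ezetimibe in KO, and limma called none in the other comparisons of 2 groups. On the control diet DESeq2 called Ech1 higher in KO. Ech1 (ENSMUSG00000053898, chromosome 7, 28825217 to 28832247, plus strand), a dienoyl-CoA isomerase of peroxisomes and mitochondria, had 2747, 2842, 2374 and 2796 normalised counts in WT control, 2507, 2349, 2351 and 2334 in WT ezetimibe, 3358, 3527 and 2961 in KO control and 2507, 2261, 2263 and 2501 in KO ezetimibe. KO control stood above all 12 other libraries, and the ezetimibe groups of the genotypes overlapped. The fold change with ezetimibe was −0.46 ± 0.0886 (adjusted p = 0.042, limma) in KO, −0.17 ± 0.082 (adjusted p = 0.974, limma) in WT and −0.31 ± 0.0604 (adjusted p = 0.013, limma) averaged over both.

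Eci2 (ENSMUSG00000021417, chromosome 13, 34977748 to 35027096, minus strand), an enoyl-CoA isomerase, followed another course, in that KO control did not exceed WT control. It had 811, 772, 695 and 809 in WT control and 752, 845 and 680.2 in KO control, with overlap. It had 625, 603, 641 and 679 in WT ezetimibe and 520.5, 597, 449.5 and 546 in KO ezetimibe, and within each genotype the ezetimibe libraries were all below the control libraries. The fold change with ezetimibe was −0.52 ± 0.107 (adjusted p = 0.0431, limma) in KO, −0.28 ± 0.0987 (adjusted p = 0.682, limma) in WT and −0.40 ± 0.0726 (adjusted p = 0.00982, limma) averaged over both. On the control diet KO against WT gave −0.027 ± 0.107 (adjusted p = 0.945, limma), and on ezetimibe, where the genotypes did not overlap, −0.28 ± 0.0987 (adjusted p = 0.244, limma).

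Acaa1b (ENSMUSG00000010651, chromosome 9, 119148023 to 119157093, minus strand), a peroxisomal thiolase strongly induced by PPARα agonists in mouse liver, had 499, 412, 407 and 354 in WT control, 320.0, 255, 505 and 375 in WT ezetimibe, 1078, 673 and 443 in KO control and 261, 263, 205 and 419 in KO ezetimibe. KO control replicate 1 was the highest library and replicate 3 lay within the WT control range. With ezetimibe Acaa1b fell in KO, at −1.30 ± 0.283 (adjusted p = 0.0491, limma), a call that held in 2 of the 7 fits with 1 library of these groups left out, and the value in WT was −0.23 ± 0.262 (adjusted p = 0.999, limma). Its near copy Acaa1a, which shares 26.7% of its 50-base words with Acaa1b, had −0.16 ± 0.126 (adjusted p = 0.476, limma) in KO, and reads could have been divided between the copies.

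Limma called none of the remaining peroxisomal genes in any comparison. Ehhadh and Hsd17b4, the bifunctional enzymes of the peroxisomal spiral, had 0.31 ± 0.145 (adjusted p = 0.327, limma) and 0.35 ± 0.158 (adjusted p = 0.323, limma) in KO relative to WT on the control diet. With ezetimibe in KO they differed in estimate, at 0.013 for Ehhadh and −0.35 for Hsd17b4. Decr2, a dienoyl-CoA reductase, had 0.25 ± 0.088 (adjusted p = 0.19, limma) on the control diet, with every KO library above every WT library. Pex11a, which promotes division of peroxisomes, had −0.40 ± 0.148 (adjusted p = 0.127, limma) with ezetimibe in KO.

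Pdk4 inhibits pyruvate dehydrogenase and so spares glucose, and Cyp4a10 hydroxylates fatty acids at their far end. Both are widely used as readouts of PPARα activity. Cyp4a10 (ENSMUSG00000066072, chromosome 4, 115518264 to 115533649, plus strand) had 203, 153, 53.6 and 295 normalised counts in WT control, 199, 81.7, 134 and 186 in WT ezetimibe, 395, 367 and 193 in KO control and 71.8, 79.3, 86.4 and 95.9 in KO ezetimibe. WT control spanned the whole range of WT ezetimibe, and the 4 KO ezetimibe libraries were close together and below all KO control libraries. The fold change was −1.86 ± 0.444 (adjusted p = 0.0553, limma) for ezetimibe in KO, which did not pass, and 1.02 ± 0.444 (adjusted p = 0.297, limma) in KO relative to WT on the control diet. Part of its transcript sequence (29.8% of 50-base words) also occurs in other genes, mainly Cyp4a32, which ranged over 8.12 to 19.3 normalised counts. Pdk4 had 898, 811, 805 and 857 in WT control and 778, 932, 1183 and 837 in WT ezetimibe. It had 1503, 1417 and 728 in KO control and 1079, 694, 432 and 909.7 in KO ezetimibe. KO control replicates 1 and 2 were the highest libraries and replicate 3 was below every WT control library, and the fold changes of 0.46 ± 0.274 (adjusted p = 0.464, limma) on the control diet and −0.65 ± 0.274 (adjusted p = 0.172, limma) with ezetimibe in KO did not pass.

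**Figure D3:**
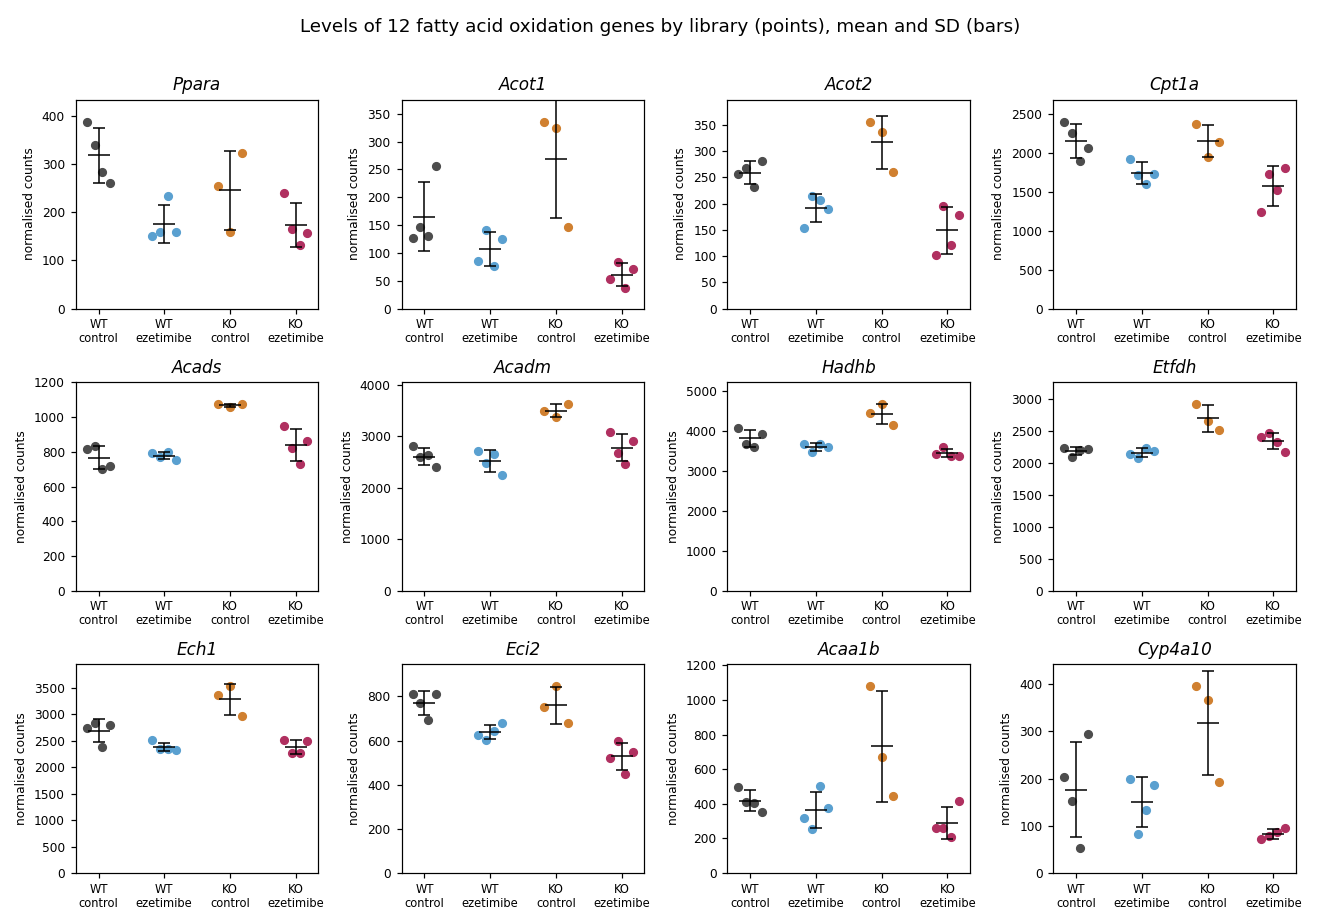
Normalised counts of 12 genes in each library (points) by genotype and diet, with the group mean and SD (bars) on axes that start at 0. For Acads, Hadhb and Ech1 the KO control points lie above all others, and for Acot2 and Eci2 the ezetimibe points lie below the control points within each genotype.

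KO control replicate 3 did not stand on the same side of its group for every gene. For Acot1, Acaa1b, Cyp4a10 and Pdk4 it was the lowest of the 3, for Acads and Hadh it lay between the others, and for Acadm it was the highest. The map of all 31 genes shows the first of these as a strong colour in 2 of the 3 KO control columns.

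**Figure D4:**
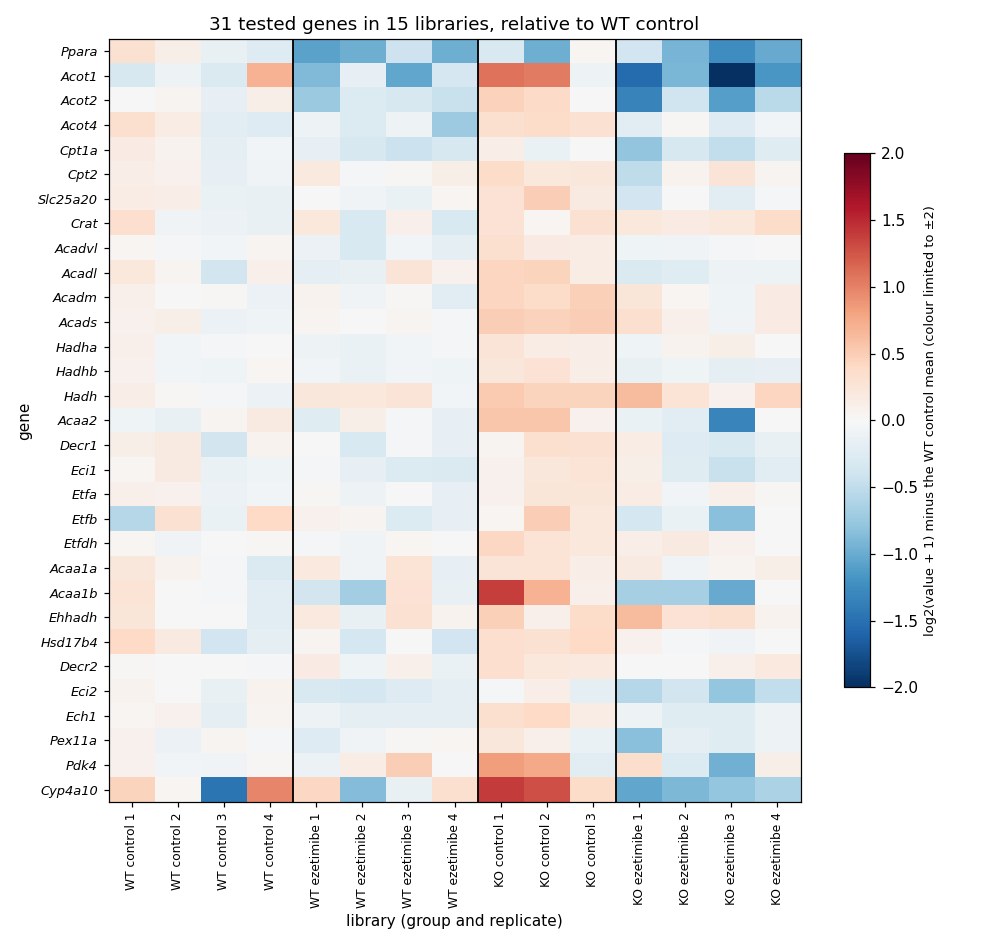
Log2(normalised count + 1) of the 31 tested genes (rows) in 15 libraries (columns), minus the mean of WT control, with red higher, blue lower and the scale limited to 2 in either direction. KO control columns are red for most genes, Acot1, Acaa1b, Pdk4 and Cyp4a10 are paler in its replicate 3, and Acot1 and Acot2 are blue throughout KO ezetimibe.

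The authors' deposited table for the control diet lists 424 genes, 6 of them members and all 6 higher in KO. These are Hadhb at 0.21, Ech1 at 0.29, Etfdh at 0.30, Acadm at 0.42, Hadh at 0.47 and Acads at 0.48 (log2 fold changes of the authors' deposited table). DESeq2 on the recovered reads called the same 6, and over all genes it called 3.16%. The authors' deposited table for ezetimibe lists 72 genes and 0 members.

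Beyond the 33 genes, 5 further lists of the pathway hold 111 genes of the table, of which 102 were tested. KO against WT averaged over both diets raised 11 of them and lowered 0, where 1.64% of all genes were called higher (limma). They include Cat, the peroxisomal catalase, at 0.41 ± 0.0857 (adjusted p = 0.0237, limma), Vnn1, a pantetheinase and PPARα target, at 0.39 ± 0.0807 (adjusted p = 0.0237, limma), and Crot, the peroxisomal carnitine octanoyltransferase, at 0.42 ± 0.0976 (adjusted p = 0.0312, limma). Pnpla2, the lipase that opens stored triglyceride, had 0.40 ± 0.0816 (adjusted p = 0.0232, limma) and is also listed as higher in KO on ezetimibe in the authors' deposited table, at 0.47. The others were Acad11, Acad12, Acsl3, Echs1, Pex6, Phyh and Scp2, with fold changes between 0.25 for Echs1 and 0.53 for Acad12. Ezetimibe in KO lowered 1, the peroxisomal Hsdl2, at −0.59 ± 0.106 (adjusted p = 0.0271, limma), where 0.294% of all genes were called lower. Averaged over both genotypes ezetimibe lowered Hsdl2 and Acot6, a further thioesterase of the chromosome 12 array, at −1.14 ± 0.234 (adjusted p = 0.0193, limma). In that comparison 0.734% of all genes were called lower. No gene of these lists was called in the comparisons of KO with WT on either diet, of ezetimibe in WT or in the interaction (limma), while the authors' deposited table for the control diet lists 8 of them as higher in KO. Their median for ezetimibe in KO was −0.096 beside −0.38 for the 31 tested members.

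By group, 5 of 29 tested further peroxisomal genes, 3 of 23 further mitochondrial genes and 3 of 33 further PPARα targets rose in KO averaged over both diets, where 1.64% of all genes did. None of 6 ketone body genes and none of 11 receptors and partners did. Fabp1, an abundant fatty acid binding protein, had −0.54 ± 0.178 (adjusted p = 0.0978, limma) in KO with ezetimibe. The receptor partner Rxra and the related receptor Ppard had 0.21 ± 0.11 (adjusted p = 0.255, limma) and 0.28 ± 0.166 (adjusted p = 0.322, limma). Of 18 genes of the respiratory chain and citrate cycle limma called 0 in any comparison, with medians of 0.11 in KO relative to WT on the control diet and −0.13 for ezetimibe in KO. The authors' deposited table for the control diet lists 3 of them as higher in KO, namely Cox4i1 at 0.43, Cox6c at 0.43 and Uqcrc1 at 0.26.

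Markers of other cell types moved with the same groups. In KO against WT on the control diet all 12 T and NK cell markers and all 8 Paneth cell markers had negative fold changes, with medians of −0.67 and −1.62, and 13 of 14 proliferation markers were negative. Limma called 0 T and NK cell, 0 Paneth cell and 3 proliferation markers lower, with 10 and 8 of the first pair of lists at an unadjusted p under 0.05. The authors' deposited table for the control diet lists more of them as lower in KO, 5 of T and NK cells (Cd8b1, Itgae, Trac, Cd7 and Ccl5), 5 of Paneth cells (among them Lyz1 and Mmp7) and 9 of proliferation (among them Mki67 and Top2a). Their summed levels were 4663 to 7779 normalised counts in WT control and 3587 to 4780 in KO control for T and NK cells, 21378 to 72283 and 11487 to 19134 for Paneth cells, and 3043 to 5796 and 2200 to 3175 for proliferation. With ezetimibe in KO all 10 myeloid markers were negative, with a median of −1.55, 9 at an unadjusted p under 0.05 and 1 called lower by limma, and their sum was 914 to 1109 in KO control and 312 to 551 in KO ezetimibe. All 12 T and NK cell markers were positive in the same comparison, with a median of 0.54, 9 at an unadjusted p under 0.05 and 0 called by limma, and their sum was 4939 to 6777 in KO ezetimibe. Averaged over both genotypes limma called C1qc of the myeloid markers lower with ezetimibe, and Ccl5 and Itgae of T and NK cells higher. It also called Agr2 and Spink4 of the 8 goblet cell markers lower, but the goblet cell list as a whole did not fall in both genotypes. Its median sum was 158684 normalised counts in KO control and 184019 in KO ezetimibe, and 164104 in WT control and 145347 in WT ezetimibe. The ranges of the 2 diets overlapped in each genotype. All 8 Paneth cell markers were negative with ezetimibe in WT, with a median of −1.08 and 0 called by limma. No marker of these 4 lists was at 0 in any library. The 14 enterocyte markers had medians of 0.063 in KO relative to WT on the control diet and 0.26 for ezetimibe in KO, with 0 called by limma in either. Averaged over both diets limma called lower in KO 8 of the 12 T and NK cell markers, 9 of the 14 proliferation markers and 3 of the 8 Paneth cell markers. Over all genes tested, 11.2% were lower at an unadjusted p under 0.05 with ezetimibe in KO, and limma called 0.294% lower. With ezetimibe averaged over both genotypes limma called 0.734% of all genes lower. The other marker counts stand without a share of all genes beside them. The part of these cell types in the differences of the oxidation genes was not tested.

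Dbp, an output gene of the clock, differed between libraries of 1 group, with 867, 764, 49.5 and 120.2 normalised counts in WT control and 911, 41.3, 415 and 91.0 in WT ezetimibe, and the labels give no time of sampling. Summed over 18 clock and clock output genes, KO control libraries held 9707 to 12178 normalised counts and KO ezetimibe libraries 12267 to 15850, without overlap. The WT groups overlapped, at 9746 to 14769 in WT control and 8926 to 14956 in WT ezetimibe. Of 17 clock genes tested limma called 0 in any comparison, and the part of the clock in the differences of the oxidation genes was not tested. Without WT control replicate 4 and KO ezetimibe replicate 3, which bounded the first component, ezetimibe lowered 1 member in KO, Acot1, and 3 averaged over both genotypes, Acot1, Acot2 and Eci2. In the same fit KO against WT averaged over both diets raised 3, Acadm, Acads and Hadh, and 0 were called in KO against WT on the control diet.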

How the data were processed

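Distal jejunum RNA of 15 libraries was analysed from the deposited files. The submitters' processing notes name DESeq2, FastQC, the mm10 build and STAR 2.6.0c. The counting program, annotation and strand setting are not stated in the labels or headers. The main table holds a signal that the authors made by dividing the reads of each gene by 1 DESeq2 size factor per library. Dividing each column by its smallest value above 0 gave whole reads for 100% of values (tolerance 0.01), 13855034 to 19307079 per library. The authors' deposited tables of KO against WT on each diet hold log2 fold changes, a fold change as a ratio, p-values before and after adjustment and the Wald statistic, a score, for genes with an adjusted p under 0.05.

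Genes at 10 or more in at least 3 libraries were fitted with limma 3.58.1 (trend) in R 4.3.3 on log2(normalised count + 1), with 1 mean for each of 4 groups over all 15 libraries, 7 comparisons and Benjamini-Hochberg adjustment over the genes tested. The code was tested on simulated data with changes larger than most of those found here, so its sensitivity to smaller ones was not tested. The labels do not say that replicates came from separate animals, so p-values measure the spread between libraries, which may be technical. The alternatives were other pseudocounts, filters and scalings, only the groups compared, a robust fit, the replicate number as a block, edgeR 4.0.16, DESeq2 1.42.0 and limma-voom on the recovered reads, and leaving out each library. A fit without both ends of the first principal component was added after seeing the data.

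Of 26844 identifiers 26825 matched GENCODE M21, which gave coordinates and exon lengths. Promoters are from RefSeq (GRCm38.p6). The genes and the lists of pathway genes and markers were chosen with earlier results of these data known. The rule for named genes takes every member, a set of companion PPARα genes and other pathway genes that were called. Some of these genes are not reported here.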

Additional observations from a re-analysis of the deposited data

Results flagged for a closer look

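In 9 of 99 groups of 4 libraries, each group being 1 gene in 1 group of mice, the highest or lowest library stood apart from the other 3 by Dixon's test. With independent, normally distributed values this happens in about 1 of 20 groups. The genes share the same libraries and some values are single reads, so that rate cannot be set against the 9 found. Ppara was at 235 normalised counts in WT ezetimibe replicate 3, above the others of its group (150.0, 159 and 159). Acot1 was at 257 in WT control replicate 4, the highest of a group that otherwise lay between 127 and 147. Crat was at 2861 in WT control replicate 1, the highest of its group, Hadh at 8978 in WT ezetimibe replicate 4, the lowest of its group, and Ech1 at 2507 in WT ezetimibe replicate 1, the highest of its group. The remaining 4 were values of genes near 0. Acot3 was lowest in KO ezetimibe replicate 1 at 1.07, and Acot5 was highest in WT control replicate 4 at 3.06, in WT ezetimibe replicate 4 at 0.928 and in KO ezetimibe replicate 2 at 1.07. For Acot5 the values of 0.928 and 1.07 were 1 read each, which the test cannot judge.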

How the results depend on the processing

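No gene that had been called changed sign under any alternative run, and of the medians over the 31 genes only that of KO against WT on ezetimibe did, at −0.069 to 0.022 when 1 library was left out. In KO against WT on the control diet the single call became 0 with a pseudocount of 5, without the filter, with quantile normalisation, with only the groups compared, with edgeR, with limma-voom and without both ends of the first principal component, and 6 with DESeq2. For ezetimibe in KO the 6 calls became 2 without the filter, 1 with only the groups compared, 16 with DESeq2 and 1 without both ends of the component. For KO averaged over both diets the 4 calls became 1 without the filter and 0 with quantile normalisation. For ezetimibe averaged over both genotypes the 8 calls became 5 without the filter, 13 with DESeq2 and 3 without both ends of the component. DESeq2 called 1 member for ezetimibe in WT, and quantile normalisation moved the median of KO against WT on ezetimibe to −0.12. The causes were not tested. Shares of all genes called are given only for the main fit and DESeq2, so the counts of the other fits have no background beside them. Leaving out 1 library at a time gave 0 to 2 calls in KO relative to WT on the control diet, 0 to 10 for ezetimibe in KO, 0 to 6 for KO averaged over both diets and 4 to 8 for ezetimibe averaged over both genotypes, and 0 in each such fit for KO against WT on ezetimibe, ezetimibe in WT and the interaction. Depth limits only Acot3 and Acot5, which were not tested.

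Libraries with the same replicate number did not deviate together in every pair (r from −0.24 to 0.33 over 21 pairs, 12 of them over 0.1). Their median r was 0.125, against −0.025 over 63 pairs with different numbers, of which 17 were over 0.1. Libraries with the same number thus deviated together more often, but only 2 of 15 libraries correlated best with one of their own number. The numbers were not taken to pair the samples, and whether they mark samples handled together was not tested. With the replicate block 2 members were called in KO against WT on the control diet, 15 for ezetimibe in KO and 13 for ezetimibe averaged over both genotypes. The share of all genes called with the block was not computed, so these counts cannot be read as particular to the members.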

Other observations

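Some PPARα genes outside the 33 were not called by limma in any comparison. Angptl4, an inhibitor of lipoprotein lipase, had a log2 fold change of −0.69 ± 0.49 (adjusted p = 0.415, limma) for ezetimibe in KO and −0.0091 ± 0.49 (adjusted p = 0.998, limma) in KO relative to WT on the control diet. Cd36, a fatty acid transporter, had 0.23 ± 0.169 (adjusted p = 0.438, limma) and Plin2, a lipid droplet coat protein, −0.17 ± 0.143 (adjusted p = 0.502, limma) for ezetimibe in KO. The coactivator gene Ppargc1a had the opposite sign to most members in that comparison, at 0.78 ± 0.341 (adjusted p = 0.188, limma). Cyp4a14, a close relative of Cyp4a10 and strongly induced by PPARα agonists in liver, was too low to be tested. It was at 58.1 normalised counts in WT control replicate 2 and no higher than 7.39 in the other libraries.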
